A study of Homo sapiens with 26 samples.

Results

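The guides described here target subunits of NuRD, the nucleosome remodelling and deacetylase complex. They are the guides of the 10 sorted library pools whose target is 1 of 12 named NuRD genes, histone deacetylases left out. Of these, 6 genes were measured: the remodelling ATPase CHD4, the scaffold MTA2, the linker GATAD2A, the MBD protein MBD3 and the histone chaperones RBBP4 and RBBP7. They carried 81 guides of 12342 in the series, in pools CF1 (31 guides), CF2 (10), CF3 (20), TF1 (10) and TF3 (10). MBD3 was measured in both CF2 and TF3, which gives 7 measurements. CHD3, CHD5, MTA1, MTA3, GATAD2B and MBD2 were not analysed here. The exon scan and test libraries held 0 guides of these genes.

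NuRD joins 2 activities on chromatin. A CHD-family ATPase moves nucleosomes, and HDAC1 or HDAC2 removes acetyl groups from histones. MTA proteins are the scaffold that binds the deacetylase, RBBP4 and RBBP7 are WD-repeat proteins that bind histone tails, MBD2 or MBD3 bridges the modules, and GATAD2A or GATAD2B ties CHD4 to the rest. CHD4 is known as a partner of the PAX3-FOXO1 fusion protein in rhabdomyosarcoma cells, and CHD4 with NuRD is known to keep the cardiac and skeletal muscle programmes apart in mouse muscle.

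The cells are RH4, an established line of alveolar rhabdomyosarcoma labelled PAX3-FOXO1+, and every sample shares that background. Cells that carried 1 library of guides for CRISPR knockout were drug selected and fixed at day 7 after infection. Flow sorting on an antibody stain for myosin heavy chain (MYH), which differentiated muscle makes, gave an MYH high and an MYH low arm per library, and the guide cassettes of both were counted by sequencing. Each arm of each pool is 1 sample, so no value below has a replicate check and no test between arms was possible. The spread given is the SD over the guides of a gene, which share a target and a sort and are not replicates.

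In the 5 pools that carry these genes, total counts ran from 21819567 (CF3, MYH high) to 166032777 (CF2, MYH low). Single guides of the 6 genes had 5272 to 265334 counts per sample. The counting error of a guide's log2 ratio was 0.004 to 0.02, below the spread between guides of any of these genes. Guides against the PAX3 part of the fusion, carried by all 10 pools, had medians of 2.71 to 4.53. In CF3 the 10 negative-control guides, which target no gene, stood at 1.30, where the medians of the other 9 pools lay between -0.11 and 0.07. GATAD2A and RBBP7 were measured in CF3, and the part of that shift in their values was not tested.

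Values are log2 ratios of MYH high over MYH low, in CPM (a guide's counts over the sample's total, times 1000000) with a pseudocount of 1 CPM, set to 0 at the median guide of the pool. A value above 0 means that the guide was more frequent among MYH high cells than the pool's median guide. The value of a gene is the median over its guides. None of the 7 measurements reached 0.3 in either direction, a 1.23-fold change, which 2.34% of the 984 target measurements of the 10 pools reached. For targets at or above 0.3 that share was 1.52%, and for those at or below -0.3 it was 0.813%. With so few targets past that size, 0 of 7 lies near the background. The count depended on the reference. Centred on the negative controls, 2 measurements (GATAD2A and RBBP7) lay at or below -0.3, and with no centring 1 (GATAD2A). Both are in CF3, where 99.3% of single target guides lay at or below -0.3 with the first reference and 29.2% with no centring. The share of target medians past 0.3 with these references was not counted. The median over the 7 measurements was -0.08, against -0.01 over all targets, with 3 above 0 and 4 below. Of the 81 single guides, 9 (11.1%) were at or above 0.3 and 6 (7.41%) at or below -0.3, where 7.7% and 6.54% of all target guides of the 10 pools were. Those backgrounds are not matched to the pools of the 81 guides. In the 5 pools used, the shares ran from 5.75% to 13.9% and from 4.23% to 17.6%, both highest in CF3. CHD4 held 6 of the 9 guides at or above 0.3, and GATAD2A 3 of the 6 at or below -0.3.

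From the highest to the lowest, the order was CHD4 (0.14), MTA2 (0.14), RBBP4 (0.01), MBD3 in CF2 (-0.08), RBBP7 (-0.08), MBD3 in TF3 (-0.12) and GATAD2A (-0.26). No neighbours in this order differed by more than the SD over guides of either gene. The largest gap between neighbours was 0.14, between MBD3 in TF3 and GATAD2A. The ends of the order, CHD4 and GATAD2A, differed by 0.40, above the SD of each, but they were measured in different sorts. Without the measurements in CF3 the median was 0.01 over 5 measurements.

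CHD4, the ATPase that gives NuRD its remodelling activity, had a median log2 ratio of 0.14 (SD 0.17, 21 guides), or 1.10-fold. It was the 9th highest of 107 targets of pool CF1. Its 21 guides together held 1.330% of the MYH high counts (95% Clopper-Pearson interval 1.328 to 1.332%) and 1.255% of the MYH low counts (1.253 to 1.257%). These intervals cover counting error only, since PCR reads without molecular identifiers are not independent molecules. The shares are sums over guides and are not centred as the median is. Of its guides, 17 of 21 lay above 0, and 4 below. Both size and count depended on the reference. Centred on the negative controls of CF1, which stood at 0.07, CHD4 had 0.08 with 13 guides above 0, and with no centring 0.06 with 12 above 0. The 10 control guides of CF1 ran from -0.17 to 4.43. A new centring shifts all guides of the pool alike, so CHD4 stayed the 9th highest of 107 with each reference. The share of all CF1 guides above 0 with these references was not counted.

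The CHD4 guides differed among themselves by far more than their counting error. The highest, sgRNA_9727, had 675 CPM in MYH high and 529 CPM in MYH low cells, a log2 ratio of 0.43. The lowest, sgRNA_9721, had 477 CPM in MYH high and 540 CPM in MYH low cells, a log2 ratio of -0.10. Guides at or above 0.3 were 6 of 21, or 28.6%, where 5.75% of the 1113 target guides of CF1 reached that value. Centred on the negative controls it was 4 guides (19.0%, against 3.68% of the pool), and with no centring 3 (14.3%, against 3.32%). The 6 were sgRNA_9727 and sgRNA_9725 and sgRNA_9729 (0.43, 0.40 and 0.40), sgRNA_9736 (0.37), sgRNA_9734 (0.35) and sgRNA_9720 (0.33). None of the 21 was at or below -0.3, where 5.48% of the guides of CF1 lay. The other 15 lay between -0.10 and 0.30. The middle guide was sgRNA_9737, with 439 CPM against 420 CPM.

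CHD4 had 21 guides where most targets had 10, and 13 of the 984 target measurements had 20 or more. Among those 13, SMARCA4, the SWI/SNF ATPase, had 8 of 21 guides (38.1%) at or above 0.3 in CF2, where 8.97% of target guides were. The remaining 11 had 0 to 13.3%, in pools whose backgrounds differ. SMARCA4 also had the highest median of the 13, 0.22 (SD 0.23), with CHD4 next. Of the SMARCA4 guides, 19 of 21 lay above 0. Whether their values differ was not tested.

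CHD4 guides were also rarer than the pool's typical guide. Their median abundance, as the mean CPM of both arms, was 0.765 times that of the median guide of CF1. How many copies of each guide the library held before infection is not known here, so uneven representation and loss of cells by day 7 cannot be told apart. Across the 21 guides the Spearman correlation of log2 ratio with abundance was 0.14, given as a description of guides that share 1 library.

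MTA2, the scaffold that holds the deacetylase, had a median of 0.14 (SD 0.15, 10 guides), or 1.10-fold, the 9th highest of 105 targets of TF1. Its guides ran from -0.17 (sgRNA355, with 895 CPM in MYH high and 1107 CPM in MYH low cells) to 0.30 (sgRNA352, with 963 and 862 CPM). The 5 guides sgRNA347, sgRNA354, sgRNA349, sgRNA346 and sgRNA350 lay between 0.13 and 0.19, with sgRNA352 above them. Below them, sgRNA351 stood at 0.05. The 3 guides sgRNA355, sgRNA348 and sgRNA353 lay below 0 at -0.17, -0.14 and -0.03. The mean over guides was 0.08, lower than the median, and by the mean MTA2 was the 19th highest of TF1. No MTA2 guide reached 0.3, which 6.45% of the target guides of TF1 did, and none was at or below -0.3, where 4.23% were. The pool's negative controls stood at 0.01, and centred on them MTA2 had 0.13, but with no centring -0.0006.

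RBBP4 and RBBP7 are close paralogs, WD-repeat proteins that NuRD shares with PRC2, SIN3 and the chromatin assembly factor CAF-1. RBBP4 had a median of 0.01 (SD 0.15, 10 guides) in CF1, the 42nd highest of 107 targets. Its guides ran from -0.22 (sgRNA_9372, 576 CPM in MYH high and 709 CPM in MYH low cells) to 0.28 (sgRNA_9378, 1962 and 1706 CPM), with 6 above 0. Centred on the negative controls its median was -0.05. By the median RBBP4 lay near the middle of the pool. It was the 29th highest by the mean over guides and the 25th by counts summed over guides. No RBBP4 guide was past 0.3 in either direction. CHD4 and RBBP4 came from the same sort, where their medians differed by 0.13 whatever the centring. That is less than the SD over guides of each gene.

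RBBP7 had a median of -0.08 (SD 0.21, 10 guides) in CF3, the 70th highest of 106 targets. Its guides ran from -0.31 (sgRNA_10116, 823 CPM in MYH high and 1116 CPM in MYH low cells) to 0.37 (sgRNA_10111, 1224 and 1031 CPM), with 4 above 0 and 6 below. They fell on both sides of 0 with 1 guide past 0.3 in each direction, where 13.9% of the target guides of CF3 were at or above 0.3 and 17.6% at or below -0.3. RBBP7 guides had 0.723 times the abundance of the pool's median guide, the lowest of the 7 measurements.

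MBD3, which bridges the NuRD modules and does not itself bind methylated DNA in mammals as its relative MBD2 does, is the only member with values from 2 sorts. Its median was -0.08 (SD 0.17, 10 guides) in CF2, the 74th highest of 104 targets, and -0.12 (SD 0.35, 10 guides) in TF3, the 98th highest of 108. The medians differed by 0.04, less than the median difference of 0.06 over the 28 genes carried by 2 pools, which ranged from 0.006 to 0.47. Both values lay below 0, as did both values of 9 of those 28 genes (32.1%). Centred on the negative controls the value in CF2 was 0.02 and that in TF3 -0.10, so this shared sign depended on the reference. Whether the pools share guide sequences is not known, since guides are given by number only.

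The MBD3 guides in CF2 had an ordinary spread, with the 62nd largest SD over guides of 104 targets. They ran from -0.26 (sgRNA_9764, 715 CPM in MYH high and 940 CPM in MYH low cells) to 0.25 (sgRNA_9768, 770 and 710 CPM), with 7 of 10 below 0 and none past 0.3 (background 8.97% at or above 0.3 and 7.44% at or below -0.3). In TF3 they were farther apart, with the 8th largest SD over guides of 108 targets. The lowest was sgRNA2611 at -0.42, with 318 CPM in MYH high and 451 CPM in MYH low cells. The highest was sgRNA2612 at 0.75, with 2666 and 1680 CPM, the highest value of all 81 guides and the most abundant guide of the gene. Of the 10 guides, 2 were at or below -0.3 (background 8.57%) and 1 at or above 0.3 (background 9.96%).

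The sign of MBD3 in TF3 depended on how that guide was weighted. With counts summed over guides, an alternative chosen after the data were seen, the log2 ratio was 0.07 in place of -0.12. MBD3 was then the 15th highest of the 108 targets of TF3, in place of the 98th. Without sgRNA2612 the summed ratio was -0.13 and the median -0.14 over 9 guides.

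GATAD2A, the zinc-finger protein that ties CHD4 to the deacetylase module, had the lowest value of the 6 genes. Its median was -0.26 (SD 0.28, 10 guides) in CF3, or 0.837-fold, the 8th lowest of 106 targets. Its guides held 0.870% of the MYH high counts (95% Clopper-Pearson interval 0.866 to 0.874%) and 1.094% of the MYH low counts (1.092 to 1.096%). These shares are sums over guides without centring, so their ratio is not on the scale of the centred median. The lowest guide, sgRNA_11363, had 996 CPM in MYH high and 1539 CPM in MYH low cells, a log2 ratio of -0.50. The highest, sgRNA_11362, had 481 and 378 CPM and stood at 0.47. The other guide above 0 was sgRNA_11369 at 0.03, and 8 of 10 guides lay below 0.

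Of the GATAD2A guides, 3 of 10 were at or below -0.3, where 17.6% of the target guides of CF3 lay, and 1 was at or above 0.3. CF3 spread its guides more than the other pools did, with a median SD over guides of 0.28 per target against 0.15 in CF1. The MYH high sample of CF3 also had the lowest total of the 5 pools, 21819567 counts. GATAD2A and RBBP7 came from that same sort, where their medians differed by 0.18, less than the SD over guides of each. Centred on the raised negative controls of CF3, GATAD2A would stand at -1.55 and RBBP7 at -1.38, while their places in the order of the pool stay the same. A distance from 0 in CF3 therefore depends on the reference, while the order of genes within the pool and the differences between them do not.

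The authors' deposited table gives CHD4 a model score, beta, of 0.114, the 7th highest among the same 107 targets of CF1. Its Wald p-value in the authors' deposited table was 0.0012, the 2nd lowest of 114 entries of the pool, with a Wald false discovery rate of 0.0686. The other p-value in the authors' deposited table, from a column named only p-value, was 0.211, with a rate of 0.632. The 2 columns thus place CHD4 very differently. Neither p-value rests on replicate samples, since each arm is 1 sample, and CHD4 had 21 guides where most targets had 10. For comparison, the authors' deposited table gives the fusion set PAX3_Fusion_DBD in CF1 a beta of 2.15, a Wald p-value of 0.394 and 0 in the other p-value column, so the order of Wald p-values in that pool is not the order of the scores.

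The remaining members had small scores. In the authors' deposited table, beta was 0.0549 for MTA2, 0.0302 for RBBP4, -0.0203 for RBBP7, -0.131 for GATAD2A, and for MBD3 -0.0388 in CF2 and -0.0269 in TF3. Each sign was that of the median log2 ratio. GATAD2A had the next lowest Wald p-value of the 7 measurements in the authors' deposited table, 0.036, with a rate of 0.156. It was only the 26th lowest of 113 entries of CF3. The column named only p-value in the authors' deposited table gave GATAD2A 0.0796, with a rate of 0.36. At a rate of 0.05, 0 of 7 measurements passed in either column of the authors' deposited table, where 3.66% (column fdr) and 0.407% (Wald column) of the 984 target measurements did.

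HDAC2, 1 of the deacetylases that form NuRD's catalytic core, had a median of 0.09 (SD 0.22, 10 guides) in CF3, the 28th highest of 106 targets. HDAC1 was not analysed here. Within that sort HDAC2 lay above RBBP7 and GATAD2A, by less than the SD over guides for RBBP7 and by more for GATAD2A.

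Genes that work beside NuRD were measured through 5 lists, which hold 67 genes, 28 of them measured in 29 measurements. None of the 29 reached 0.3 in either direction (background 2.34%), and their median was 0.03. Of proteins that associate with NuRD, 7 of 18 were measured in 8 measurements with a median of 0.02. The highest was KDM1A, the histone demethylase LSD1, at 0.16 (SD 0.34) in CF3, and the lowest was ZFPM1, a GATA cofactor that recruits NuRD, at -0.06 (SD 0.22) in TF1. Of other remodelling ATPases, 9 of 16 were measured, with a median of 0.07, from CHD7 at -0.12 (SD 0.27) in CF1 to SMARCA4 at 0.22 in CF2. CHD7 and CHD1, relatives of CHD4 that do not belong to NuRD, were in the same sort as CHD4. CHD1 stood at 0.07 (SD 0.17) there, below CHD4 by less than 1 SD over guides. From the list of complexes that share RBBP4 and RBBP7, CHAF1B at 0.20 (SD 0.20) and BPTF at 0.17 (SD 0.21) lay above CHD4 in that sort. The other listed genes measured in CF1 lay below it.

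Complexes that share RBBP4 and RBBP7 had a median of 0.13 over 9 measured genes of 14. The highest was SAP18, a SIN3-associated protein also known from splicing complexes, at 0.29 (SD 0.20) in CF2, and the lowest was SAP30, also of SIN3, at -0.22 (SD 0.21) in CF3. So members of 1 complex stood at both ends of that list, in different pools. Of MTA-like scaffolds, 2 of 9 were measured, RCOR1 of the CoREST complex at 0.02 (SD 0.16) in CF1 and TRERF1 at 0.04 (SD 0.11) in TF3. The list of methyl-CpG-binding proteins had 1 measured gene of 10, the histone methyltransferase SETDB1, at 0.01 (SD 0.19) in CF2.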

How the data were processed

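Guide cassettes were amplified from genomic DNA, and the values the authors deposited are raw counts of reads per guide. The submitters' processing notes name FastQC and MAGeCK without versions; how reads were matched is not given in the sources used. The authors also deposited for each pool a table of scores (beta, z), p-values and false discovery rates, named as MAGeCK's MLE step names them, per the file headers; the log base of beta is not stated, and 2 unnamed columns were not used. Guide sequences and a genome build were not used here, so no coordinates are given.

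Counts were scaled to CPM over each sample's total, and log2 ratios taken with a pseudocount of 1 CPM and centred on the pool's median guide. A minimum of 10 counts over both arms removed 8 guides, 0 of them of the genes described. Targets with at least 3 guides were kept, and shared control sets were not counted as targets, except MYOD1 in TF1. With 1 sample per arm, 0.3 on the log2 scale serves as a size limit, not a test. The procedure was run on simulated data whose planted non-zero ratios were all larger in size than any value of the genes described. No shift of the control guides as in CF3 was simulated. That run therefore does not show how well values of this size are recovered. All 6 symbols matched the RefSeq table for GRCh38.p14. Every gene of the rule, HDAC1 and HDAC2 were to be named whatever their value, and of each related list the members past 0.3, the highest and the lowest. CHD1, CHAF1B and BPTF were named after their values were seen. The members and lists were chosen with earlier results of these data known. The software was Python 3.11.15 with pandas 2.3.3, scipy 1.17.1 and numpy 2.4.6.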

Additional observations from a re-analysis of the deposited data

Results flagged for a closer look

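The medians of the negative-control guides averaged 0.11 ± 0.42 on the log2 scale (SD, n = 10 pools), and CF3 stood far from the others at 1.30; without CF3 the mean was -0.02 ± 0.07 (SD, n = 9 pools). The MYOD1 guides shared by all pools also stood apart in CF3, at 0.52, against -0.33 to 0.06 in the other 9 pools. Chance marks about 1 in 20 groups in this way. GATAD2A and RBBP7 were measured in that pool; the part of this shift in their values was not tested.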

How the results depend on the processing

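Of 7 measurements under 11 other settings, those that moved by more than the SD over guides were GATAD2A (-1.55) and RBBP7 (-1.38), both in CF3 and both when centred on the negative-control guides. The count at or below -0.3 was then 2, with no centring 1, and with a limit of 0.2 also 1, against 0. In CF3, 99.3% of single target guides lay at or below -0.3 when centred on the negative controls, and 29.2% with no centring. The share of all target medians past 0.2, or past 0.3 with these other references, was not counted. The counts of 2 and 1 therefore have no matched background. Other values changed sign by less than that SD: MBD3 in CF2 was 0.02 and RBBP4 -0.05 when centred on the negative controls, RBBP4 -0.07 and MTA2 -0.0006 with no centring, and MBD3 in TF3 0.07 with summed counts. The median over members, -0.08, was -0.20 with no centring, and 0.06 with summed counts and 0.01 without CF3, the last 2 chosen after the data were seen. In 4 settings the guides were summarised otherwise (mean, summed counts, without the highest or the lowest guide). Over these, CHD4 was the 6th to 9th highest target of CF1, and GATAD2A the 5th to 14th lowest of CF3. MTA2 was the 7th to 19th highest of TF1, RBBP4 the 25th to 51st of CF1 and RBBP7 the 50th to 73rd of CF3. MBD3 was the 69th to 78th highest in CF2, but anywhere from the 15th to the 99th in TF3. A new centring shifts all targets of a pool alike and leaves ranks as they are. No paired analysis was possible because each arm of each pool is 1 sample. Counting error was below the spread between guides, but reads are not independent molecules, and how many cells were sorted is not known here.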
